A study of Mus musculus with 55 samples.

Results

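Described here is the chromatin around 10 genes of nuclear receptors in mouse macrophages: Pparg, Ppard, Rxra, Rara, Nr4a1, Nr4a2, Nr4a3, Nr1d1, Nr1d2 and Nr3c1. Their members are the open-chromatin regions (merged ATAC-seq peaks) that the deposited tables assign to one of these genes and that lie within 100 kb of its start site. This gave 101 of the 97113 regions and 10 of the 18490 genes with such a region. The ATAC-seq libraries that the series lists are re-analysed ones of macrophages untreated or given KLA for 1 h. They are not of the treatment groups compared below. Each distance runs from the start site that the deposited tables take as nearest to the region. For Pparg, Rxra and Rara that start site differs between regions. Pparg and Nr3c1 held 18 regions each, Rara 12, Rxra 11, Nr4a2 9, Nr1d2 8, Nr4a1 and Nr4a3 7 each, Ppard 6 and Nr1d1 5, against a median of 3 over all genes.

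The study asked how 3'SL, a sialylated milk oligosaccharide, acts on macrophages at rest and under LPS, a bacterial ligand of TLR4. Bone marrow-derived macrophages, of strain C57BL/6 where the labels name one, were grown in L-cell medium and serum starved overnight. The groups were 3'SL (100 µg/ml) with LPS (10 ng/ml), LPS alone, 3'SL alone and the vehicle PBS, each for 2 h or 6 h. Chromatin immunoprecipitation sequencing was done for H3K27ac, an acetylation of histone H3 found at active promoters and enhancers, and for p300, an acetyltransferase that places it. The labels list 2 libraries for each group, replicates 1 and 2, and both were analysed except in 3 vehicle groups: PBS at 6 h for H3K27ac, and PBS at 2 h and at 6 h for p300. In these the labelled replicate 1 library is not analysed here, because no column of values could be tied to it by name, and replicate 2 stands alone. Nothing in the labels says whether replicates came from separate animals or cultures, so p-values measure only the spread between these libraries.

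Nuclear receptors are transcription factors, many of which are switched by small lipid-soluble ligands that enter the cell. PPARs and retinoic acid receptors bind DNA as partners of RXR, NR4A receptors are induced rapidly by many signals, REV-ERBs (Nr1d1, Nr1d2) repress genes of the circadian clock, and Nr3c1 encodes the glucocorticoid receptor. In macrophages several of them, PPARγ and the glucocorticoid receptor among them, are known as restraints on inflammatory gene expression.

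The Rxra and Pparg sequences below are the regions of these genes with the smallest p for H3K27ac under LPS at 2 h, and the Rara sequence is its region with the smallest p for p300. Each is given as 200 bases of the mm10 plus strand around the middle of the region, at chr2:27716562-27716761 for Rxra (intron 1 of 9), chr6:115469889-115470088 for Pparg (intron 6 of 7) and chr11:98949712-98949911 for Rara (intron 2 of 9). Capitals mark AGGTCA or its reverse complement TGACCT, the hexamer to which many nuclear receptors bind.
Rxra region: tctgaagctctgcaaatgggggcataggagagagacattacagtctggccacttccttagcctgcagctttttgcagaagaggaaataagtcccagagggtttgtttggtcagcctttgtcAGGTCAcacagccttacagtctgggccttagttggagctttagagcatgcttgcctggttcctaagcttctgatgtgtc
Pparg region: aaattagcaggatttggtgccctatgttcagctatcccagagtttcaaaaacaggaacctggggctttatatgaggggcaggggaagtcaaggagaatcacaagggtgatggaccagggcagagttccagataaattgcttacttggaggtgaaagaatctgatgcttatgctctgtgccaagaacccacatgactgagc
Rara region: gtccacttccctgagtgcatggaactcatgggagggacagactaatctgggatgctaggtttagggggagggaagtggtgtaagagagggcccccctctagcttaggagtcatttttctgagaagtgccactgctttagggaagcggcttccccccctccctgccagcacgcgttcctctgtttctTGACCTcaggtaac
One match lay in the Rxra region, 1 in the Rara region and none in the Pparg region. Over all 101 member regions, 16 (15.8%) held a match in such a window, against 12.1% of all 97113 regions.

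The promoters of the NR4A genes are shown because these 3 genes shared a sequence feature. They are the 300 bases from 250 before to 50 after the start site in RefSeq (GRCm38.p6), each on the strand of its gene: chr15:101266596-101266895 (plus) for Nr4a1, chr2:57123954-57124253 (minus) for Nr4a2 and chr4:48045055-48045354 (plus) for Nr4a3. Capitals mark TGACG or its reverse complement CGTCA, the core shared by binding sites of cAMP-responsive factors.
Nr4a1 promoter: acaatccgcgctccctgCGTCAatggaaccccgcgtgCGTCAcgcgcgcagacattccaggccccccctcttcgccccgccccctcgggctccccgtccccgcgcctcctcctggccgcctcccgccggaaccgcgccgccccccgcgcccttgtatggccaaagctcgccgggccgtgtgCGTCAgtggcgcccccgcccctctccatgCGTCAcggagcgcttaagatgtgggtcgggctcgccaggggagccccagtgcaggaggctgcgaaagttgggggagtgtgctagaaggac
Nr4a2 promoter: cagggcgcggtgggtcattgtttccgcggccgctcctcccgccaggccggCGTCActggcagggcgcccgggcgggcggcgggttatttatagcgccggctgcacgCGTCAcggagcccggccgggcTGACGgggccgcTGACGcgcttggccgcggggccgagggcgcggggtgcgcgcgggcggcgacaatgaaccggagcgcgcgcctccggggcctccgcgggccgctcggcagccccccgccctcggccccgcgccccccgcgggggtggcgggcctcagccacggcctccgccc
Nr4a3 promoter: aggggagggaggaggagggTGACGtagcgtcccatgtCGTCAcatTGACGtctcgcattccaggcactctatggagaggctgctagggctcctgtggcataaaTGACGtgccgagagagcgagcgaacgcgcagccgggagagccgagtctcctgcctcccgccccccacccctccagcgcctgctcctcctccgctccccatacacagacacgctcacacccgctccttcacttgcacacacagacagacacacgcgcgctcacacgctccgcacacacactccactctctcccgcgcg
Each of the 3 promoters held 4 matches. Of 32851 promoters in the table, 76 (0.231%) held at least 4, a minimum chosen after these promoters had been seen. At least 1 match was present in 6 of the 15 promoters listed for the members (40%), against 20.8% of all promoters. The RefSeq start of Nr4a2 used here lies upstream of the start from which the deposited table measures its distances.

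H3K27ac libraries held 4.2 M to 39.6 M tags (aligned reads) and p300 libraries 3.2 M to 18.1 M. The share of tags in regions was 53.9% to 64.8% in replicate 1 and 72.4% to 79.3% in replicate 2 for H3K27ac, and 6.12% to 9.42% and 20.1% to 27.5% for p300, so values were rescaled by tags in regions and are called normalised tags below. The treatment label reads 1 h in replicate 1 of the H3K27ac libraries of 3'SL with LPS, LPS and 3'SL titled 2 h, and PBS in the 2 h replicate 2 library of 3'SL with LPS, and titles were followed. All 9 macrophage markers carried more H3K27ac than every input in every library, as did 0 of 6 neutrophil and 0 of 4 fibroblast markers, 2 of 4 dendritic cell markers and 1 of 3 T cell and 1 of 1 B cell markers that had a region. Summed macrophage markers ran at 247 to 312 normalised tags a window with LPS at 2 h, against 215 to 311 with PBS at 2 h. The T cell markers ran at 20.3 to 27.8 with LPS at 2 h against 14.7 to 18.0 with PBS at 2 h, and at 35.6 to 42.0 with LPS at 6 h against 14.6 in the 1 PBS library analysed at 6 h. The dendritic cell markers ran at 77.0 to 78.6 with LPS at 2 h against 63.6 to 97.1 with PBS at 2 h, and at 51.8 to 58.6 with LPS at 6 h against 87.2 with PBS at 6 h. The part of these markers in the results was not tested. Fewer cells of a type and less signal per cell cannot be told apart in such bulk samples.

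Levels per region, in the authors' tags per 10000000 averaged over libraries, placed Pparg first among the members for H3K27ac, with 118 tags a window, above 81.2% of all genes. Nr3c1 followed with 108, Rara with 105, Nr1d2 with 95.4, Nr1d1 with 95 and Nr4a3 with 91.8. Rxra (43.6), Nr4a2 (41.2), Nr4a1 (30.5) and Ppard (28.2) lay lower. For p300 the order differed. Nr1d1 led with 70.1 tags a window, above 98.5% of all genes, then Nr4a1 with 34.9 (above 91.0%), and Nr4a2 was lowest with 7.88. These orders are averages over treatments and changed between them. In normalised tags of H3K27ac a window, Pparg had 73.3 with LPS at 2 h, below Nr3c1 (152.8), Rara (113.9), Nr1d2 (112.9) and Nr4a3 (83.3), while with PBS at 2 h it was first with 165.9. For p300 Nr1d1 was first and Nr4a2 last in each of the 8 groups, but Nr4a1, with 25.6 a window, was below Rara (35.2) and Nr3c1 (30.5) with LPS at 2 h, and with 17.2 it was below Nr3c1, Pparg, Rara and Nr1d2 with LPS at 6 h. All 10 members exceeded every input in every H3K27ac library, but only Nr1d1, Nr1d2 and Nr3c1 did so in every p300 library.

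**Figure D1:**
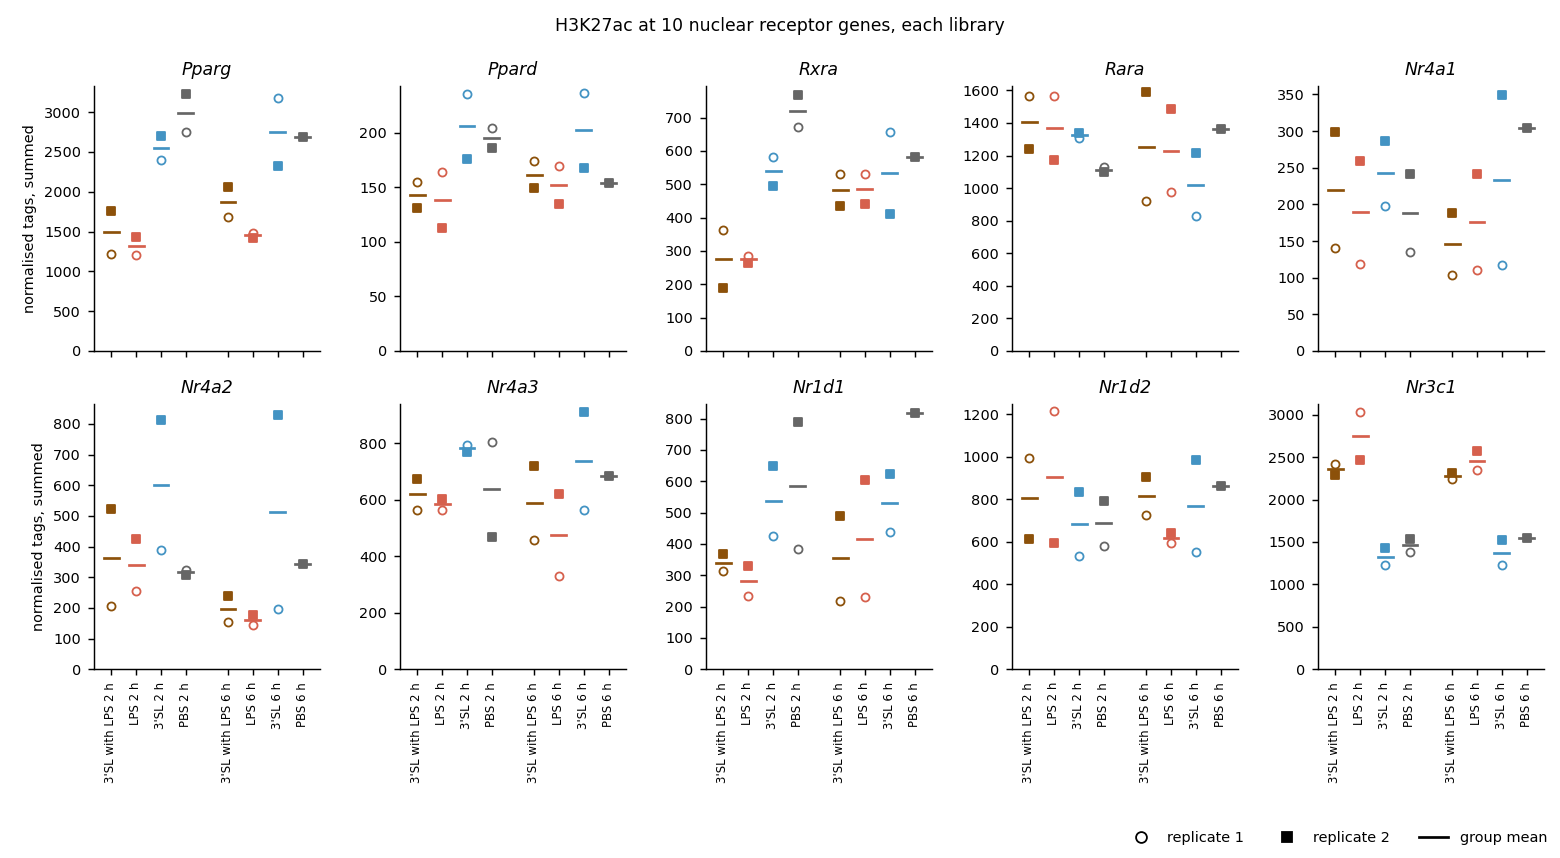
H3K27ac summed over the regions of each of the 10 genes (normalised tags, y axis) in 15 libraries by treatment and time (x axis). Open circles are replicate 1, filled squares replicate 2 and lines group means. Pparg and Rxra lie lower, and Nr3c1 higher, in both LPS libraries than in both PBS libraries at 2 h.

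With LPS at 2 h, H3K27ac was lower than with PBS over Pparg and Rxra and higher over Nr3c1, and the other 7 genes did not pass the test. With limma's trended empirical Bayes test on log2(normalised tags + 1), adjusted by the Benjamini-Hochberg method over 16710 genes at a threshold of 0.05, 1 member gene was called higher and 2 lower. Of all genes tested, 5.76% were called. With the replicate number as a block the members called were 1 higher and 3 lower, Nr1d1 being added, against 23.3% of all genes. Leaving out either LPS 2 h library or either PBS 2 h library ended all 3 calls, as did leaving out the libraries whose treatment label reads 1 h. The changes themselves stayed near their values: with 1 of these libraries left out they ran from -1.30 to -1.06 for Pparg, from -1.47 to -1.29 for Rxra and from 0.73 to 1.06 for Nr3c1, and without the libraries labelled 1 h they were -1.09, -1.47 and 0.73.

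Pparg encodes PPARγ, a receptor for fatty acid derivatives that drives lipid uptake genes in macrophages. Its H3K27ac sum was 1207 and 1432 normalised tags with LPS at 2 h, against 2744 and 3230 with PBS at 2 h (replicates 1 and 2). Both LPS libraries lay below both PBS libraries, and the change was -1.18 (log2, SE 0.25, limma adjusted p = 0.0241, and 0.00126 with the block). At 6 h the sum was 1482 and 1425 with LPS against 2682 with PBS, a change of -0.88 (SE 0.31, adjusted p = 0.282). The LPS libraries again lay below the 1 PBS library analysed, without a call.

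The lower H3K27ac was spread along the gene: all 18 of its regions tested were below 0 at 2 h, with a median change of -1.13, and 4 were called. The region printed above, 47.9 kb from the start site nearest it, moved most, at 18.3 and 19.6 normalised tags with LPS at 2 h against 174.6 and 196.3 with PBS at 2 h (log2 -3.22, SE 0.48, adjusted p = 0.00532). It was 41.4 and 26.2 with LPS at 6 h against 162.1 with PBS at 6 h (-2.26, adjusted p = 0.115, and 0.005 with the block). Its neighbour at 47.4 kb changed by -2.71 at 2 h (SE 0.45, adjusted p = 0.00826), and its 1000 bp window overlaps that of the first, so the pair are not separate measurements. The other pair called, at 41 kb and 41.1 kb, lies in intron 5 of 7 and exon 6 of 8 of different transcripts and also overlaps, with changes of -1.91 and -1.88 (adjusted p = 0.0339 and 0.031). The promoter region of Pparg had 56.2 and 76.4 normalised tags with LPS at 2 h against 170.9 and 133.6 with PBS (-1.19, SE 0.41, adjusted p = 0.128, and 0.0165 with the block). This promoter region, at chr6:115361072-115361174, lies at another start site than the one from which the 4 called regions are measured. Without the PBS 2 h library of replicate 2, the call of the 47.9 kb region was lost (adjusted p = 0.0545), and it held when any other single library of the comparison was left out.

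Ppard encodes PPARδ, a broadly expressed relative of PPARγ. Its sum was 163.8 and 112.8 normalised tags with LPS at 2 h, against 204.1 and 186.0 with PBS at 2 h. The groups did not overlap, but the change of -0.52 was not called (adjusted p = 0.378). All 6 of its regions were below 0, and the one of highest level beyond 2 kb, 15.1 kb into the gene, had 19 and 10.9 with LPS at 2 h against 46.2 and 43.2 with PBS (-1.57, SE 0.43, adjusted p = 0.0622, and 0.0036 with the block).

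Rxra encodes RXRα, the common partner of PPARs, retinoic acid receptors and LXRs. Its sum was 286.4 and 264.2 normalised tags with LPS at 2 h, against 672.4 and 766.6 with PBS at 2 h. Both LPS libraries were below both PBS libraries, and the change was -1.38 (log2, SE 0.33, adjusted p = 0.0359, and 0.00107 with the block). At 6 h it was 529.7 and 441.9 with LPS against 583.3 with PBS, a change of -0.27 (SE 0.40, adjusted p = 0.86). LPS at 6 h exceeded LPS at 2 h in both replicates, by 0.81 (SE 0.33, limma adjusted p = 0.671). The LPS response at 6 h minus that at 2 h was 1.11 (SE 0.52, adjusted p = 1.0), so a difference in response between the 2 times was not called.

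All 9 Rxra regions tested were below 0 at 2 h, with a median of -1.37, and 1 was called. It is the region printed above, 6.1 kb from the start site nearest it. That start site is not the one at the Rxra promoter region, chr2:27676899-27677003. The called region had 32.5 and 34.2 normalised tags with LPS at 2 h against 163.5 and 204.5 with PBS at 2 h (-2.42, SE 0.34, adjusted p = 0.00457). With LPS at 6 h it was at 104.9 and 91.8 against 146.0 with PBS at 6 h (-0.57, SE 0.42, adjusted p = 0.631). The region was higher with LPS at 6 h than at 2 h in both replicates (1.53, adjusted p = 0.423, and 0.0151 with the block). Without the PBS 2 h library of replicate 2 the 2 h call was lost (adjusted p = 0.0528).

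Nr3c1, the glucocorticoid receptor gene, moved the other way. Its sum was 3036 and 2466 normalised tags with LPS at 2 h, against 1382 and 1537 with PBS at 2 h. Both LPS libraries were above both PBS libraries, and the change was 0.91 (log2, SE 0.21, adjusted p = 0.0341, and 0.00212 with the block). At 6 h it was 2349 and 2570 with LPS against 1548 with PBS (0.67, SE 0.26, adjusted p = 0.332). The LPS libraries were again above PBS, without a call. With regions within 10 kb of the start site alone, the 2 h change was 0.58 (adjusted p = 0.255).

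Of 17 Nr3c1 regions tested, all 17 were above 0 at 2 h and 16 at 6 h, and 2 were called at 2 h. The first, in intron 1 of 7 at chr18:39445903-39446007, had 199.7 and 120.1 normalised tags with LPS at 2 h against 22.2 and 31.8 with PBS at 2 h (2.50, SE 0.42, adjusted p = 0.00913). With LPS at 6 h it had 97.1 and 141.6, against 35.6 with PBS at 6 h. The second lies beside it, at 41.1 kb, in an overlapping window, with a change of 2.33 (adjusted p = 0.0141). The regions 2.7 kb and 2.0 kb upstream, the one of highest level beyond 2 kb and the one nearest the start site, changed by 0.71 and 0.81 (adjusted p = 0.243 and 0.134, with the block 0.0319 and 0.0113). The call of the 41.3 kb region held without the LPS 2 h library of replicate 2 (adjusted p = 0.0371) and was lost without the LPS 2 h library of replicate 1 (0.0828), the PBS 2 h library of replicate 1 (0.0562) or that of replicate 2 (0.0519).

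**Figure D2:**
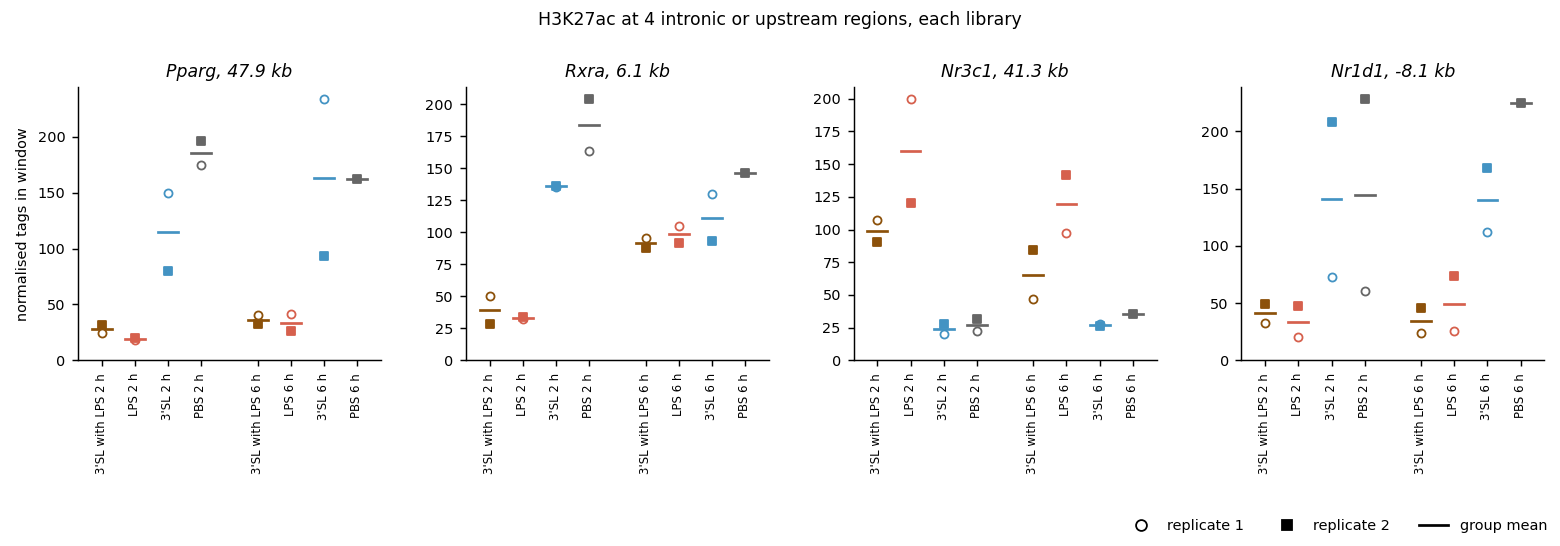
H3K27ac (normalised tags, y axis) at 1 region each of Pparg, Rxra, Nr3c1 and Nr1d1 in every library by treatment and time (x axis), with open circles for replicate 1, filled squares for replicate 2 and lines for group means. The Pparg region lies between 18.3 and 41.4 in the LPS libraries and between 162.1 and 196.3 in the PBS libraries.

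Over all member regions at 2 h, 2 were called higher (both Nr3c1) and 5 lower (4 Pparg, 1 Rxra) of 89 tested, against 5.14% of all 77387 regions called. The block raised these to 12 higher and 21 lower, against 23% of all regions: 11 of Nr3c1 and 1 of Rara higher, and 12 of Pparg, 6 of Rxra, 2 of Nr1d1 and 1 of Ppard lower. At 6 h limma called 0 member regions (15 at an unadjusted p under 0.05, 0 by edgeR and 4 by DESeq2), against 0.676% of all regions, and the block called 6 higher, all of Nr3c1, and 6 lower (4 Pparg, 1 Nr1d1, 1 Nr4a1), against 9.18%. No member gene was called at 6 h by limma (2 at an unadjusted p under 0.05), edgeR, DESeq2 or the block, against 0.569% of all genes and 7.83% with the block.

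**Figure D3:**
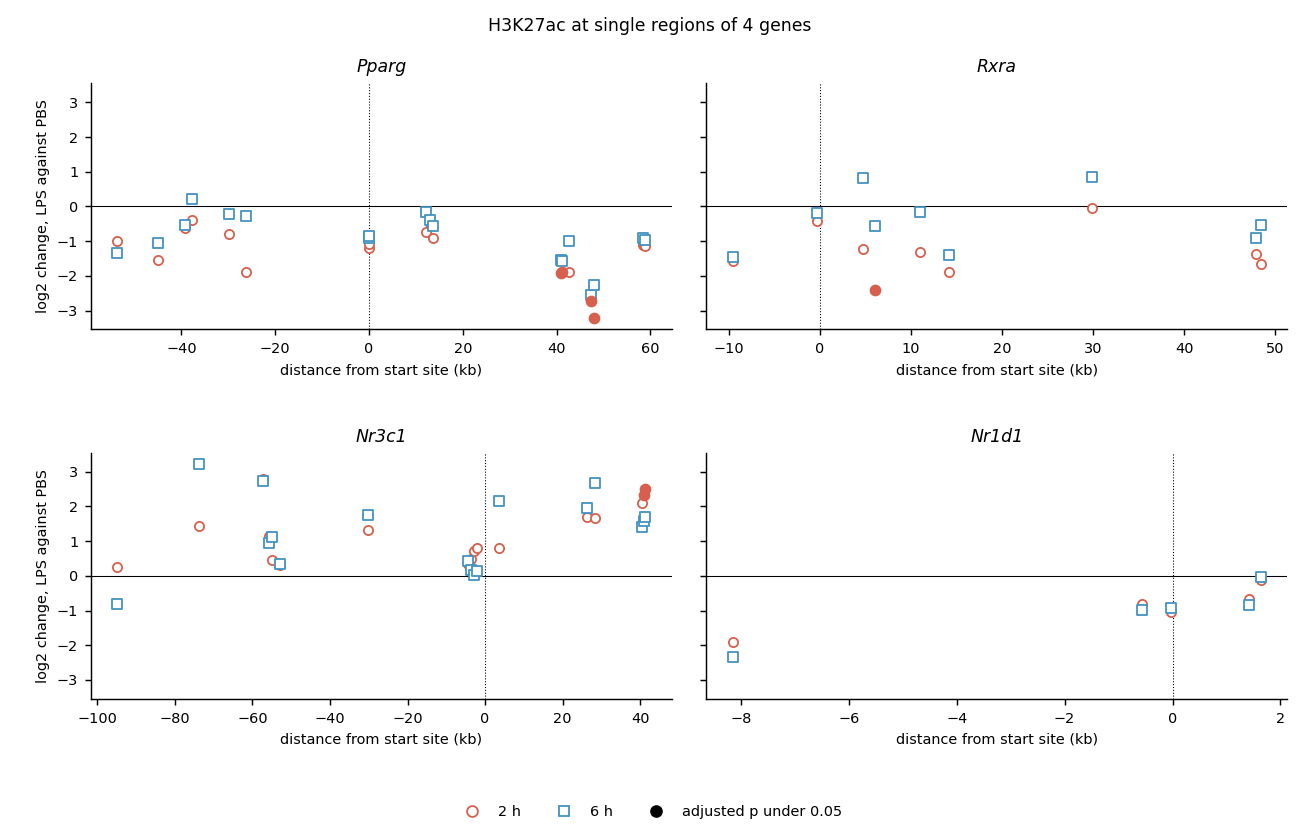
Log2 change of H3K27ac (y axis) at each tested region of Pparg, Rxra, Nr3c1 and Nr1d1 by distance from the nearest start site in kb (x axis), LPS against PBS at 2 h and 6 h. Regions of Pparg and of Rxra are measured from different start sites, so for them the axis is not position along the gene. Filled points have an adjusted p under 0.05. At 2 h all points of Pparg (18), Rxra (9) and Nr1d1 (5) are below 0 and all 17 of Nr3c1 above.

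Nr1d1 and Nr1d2 encode the REV-ERB repressors, and limma called neither. Nr1d1 had 233.6 and 328.2 normalised tags with LPS at 2 h, against 382.4 and 789.2 with PBS at 2 h. The groups did not overlap, but the gap between the PBS libraries was wider than the gap between the groups. The change was -0.99 (SE 0.53, adjusted p = 0.356, and 0.0135 with the block). At 6 h it had 229.2 and 603.2 with LPS against 816.6 with PBS (-1.13, SE 0.65, adjusted p = 0.542). That PBS library is of replicate 2, so within a replicate the comparison at 6 h is 603.2 against 816.6. All 5 Nr1d1 regions were below 0 at both times, and the one 8.1 kb upstream, at chr11:98783469-98783583, had 20.3 and 47.3 with LPS at 2 h against 61.0 and 228.1 with PBS (-1.89, SE 0.75, adjusted p = 0.193, and 0.000838 with the block). Nr1d2 had 1214 and 593.2 with LPS at 2 h, against 581.9 and 790.2 with PBS. Its groups overlapped, and the replicates went opposite ways, by 1.06 and -0.41. At 6 h Nr1d2 had 596.1 and 641.2 with LPS against 863.8 with PBS (-0.48, SE 0.50, adjusted p = 0.783). Both LPS libraries lay below PBS, as for Nr1d1, and all 4 Nr1d2 regions tested were above 0 at 2 h and below 0 at 6 h. Whether the 2 genes differ in their change was not tested.

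Rara, the retinoic acid receptor α, had 1564 and 1170 normalised tags with LPS at 2 h, against 1129 and 1100 with PBS at 2 h. The groups did not overlap by a narrow margin, and the change of 0.28 was not called (adjusted p = 0.723). Of its 11 regions tested, 7 were above 0 and 4 below. At 6 h it had 978.0 and 1483 with LPS against 1360 with PBS, which lies between them (-0.18, adjusted p = 0.917).

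The NR4A genes encode orphan receptors that many cells switch on soon after a stimulus. Under LPS, limma called none of the 3 genes or their regions at 2 h or 6 h, and the block called 1 Nr4a1 region, lower for H3K27ac at 6 h. At 2 h Nr4a1 had 119.2 and 259.8 normalised tags with LPS, against 134.9 and 241.5 with PBS, Nr4a2 had 255.9 and 424.3 against 323.3 and 308.3, and Nr4a3 had 563.9 and 602.6 against 804.5 and 468.6. LPS and PBS overlapped for all 3, with changes of -0.04, 0.06 and -0.07. The 1 PBS library analysed at 6 h is of replicate 2. For all 3 genes the LPS 6 h library of replicate 1 lay below that of replicate 2. The changes at 6 h therefore mix treatment with replicate. At 6 h the 3 sums lay below the 1 PBS library analysed in both LPS libraries, with 110.6 and 241.3 against 304.6 for Nr4a1 (-0.89), 144.2 and 178.3 against 343.8 for Nr4a2 (-1.10), and 328.4 and 618.9 against 684.8 for Nr4a3 (-0.60). Their adjusted p were 0.725, 0.658 and 0.685.

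**Figure D4:**
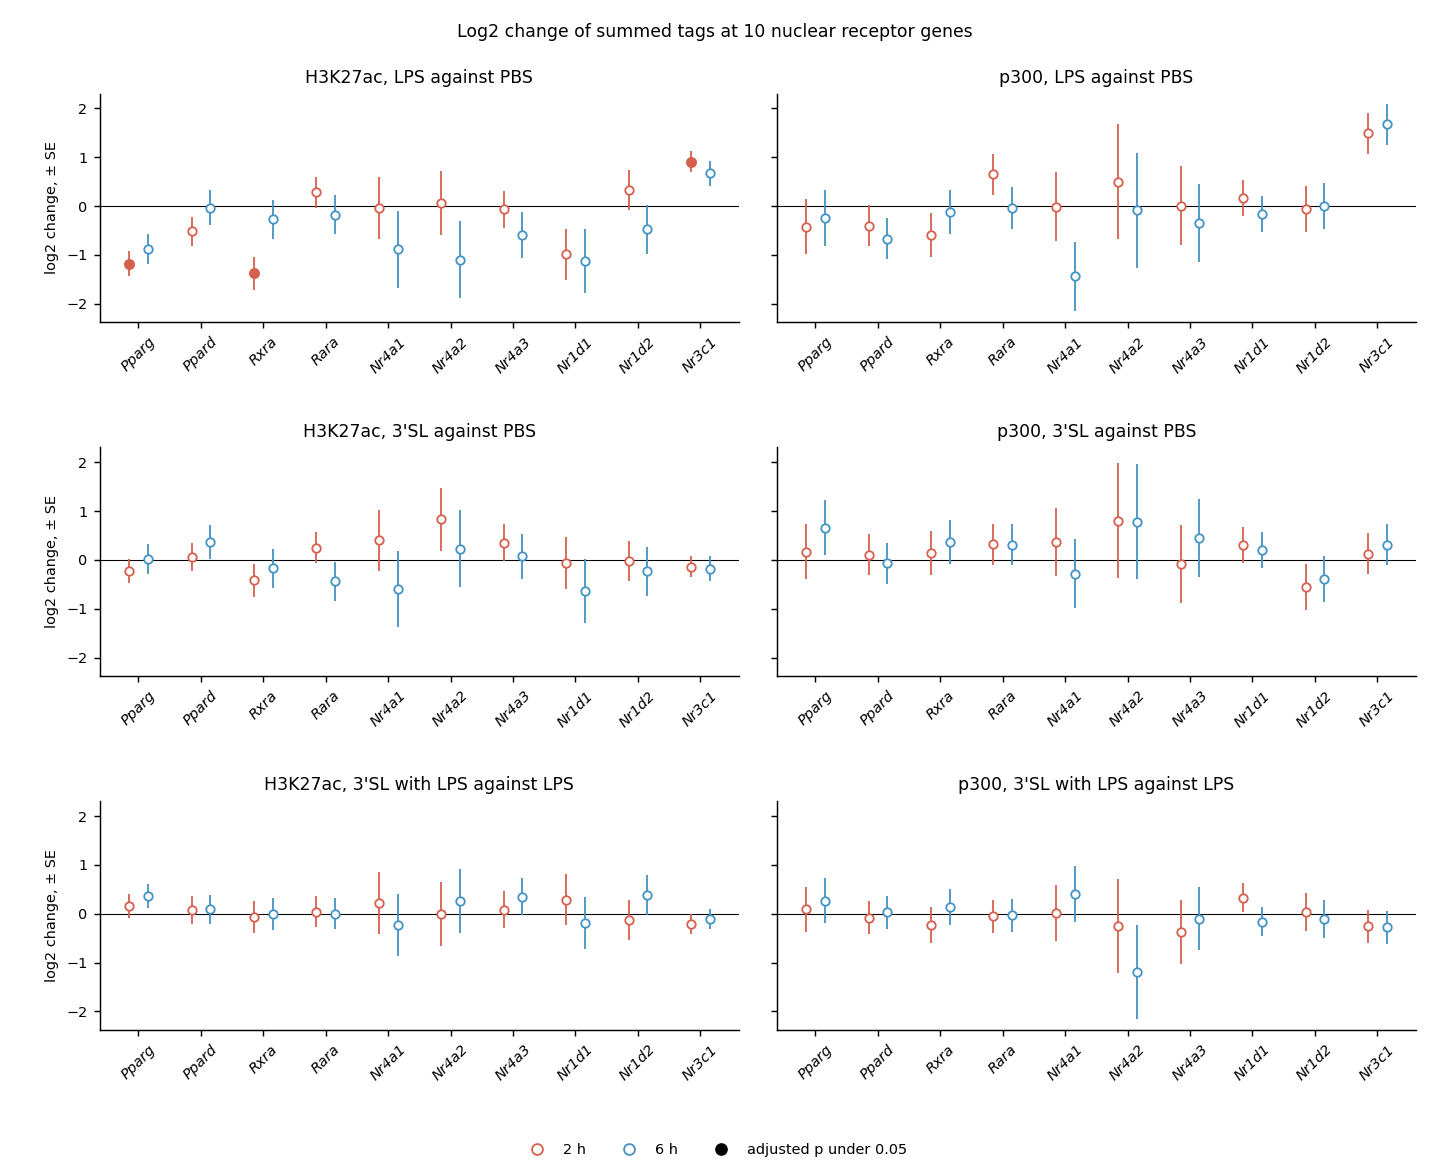
Log2 change with its SE (y axis) of each of the 10 genes (x axis) for H3K27ac and p300, in each comparison of treatments. Filled points have an adjusted p under 0.05 by limma: Pparg, Rxra and Nr3c1 for H3K27ac, LPS against PBS at 2 h.

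For p300 the vehicle rested on 1 analysed library at each time, that of replicate 2. Replicate 1 had a far smaller share of tags in regions than replicate 2. Differences within replicate 2 are therefore given as well for Nr3c1 here and for Nr4a2 under 3'SL below. The largest change among the member genes was that of Nr3c1. Its p300 sum was 541.5 and 556.2 normalised tags with LPS at 2 h, against 194.4 with PBS at 2 h, and 439.4 and 734.4 with LPS at 6 h, against 178.1 with PBS at 6 h. Each LPS library was above PBS at both times. The changes were 1.49 at 2 h (SE 0.42, adjusted p = 0.0975, within replicate 2 1.51) and 1.67 at 6 h (SE 0.42, adjusted p = 0.192, within replicate 2 2.04). Neither was called without the block, and both were with it (adjusted p = 0.0076 and 0.00844), while DESeq2 called the 6 h change (0.0263). On the authors' scaling the changes were 0.61 and 0.64, where the median of all genes was -0.73 and -1.04, so relative to that median they were 1.34 and 1.68. With regions within 10 kb alone they were 0.97 and -0.15.

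No other member gene was called for p300. Limma called 0 of 10 at 2 h and 0 of 10 at 6 h (1 at an unadjusted p under 0.05 each time, 0 by edgeR at both times, 0 at 2 h and 1 at 6 h by DESeq2), against 1.7% and 0.138% of all 15971 genes tested. The block called 1 higher each time, Nr3c1, against 8.66% and 2.51% of all genes. Nr4a1 had 111.5 and 129.1 normalised tags with LPS at 6 h, against 326.3 with PBS at 6 h (-1.44, SE 0.70, adjusted p = 0.622). Nr1d1, the member of highest p300 level, had 394.7 and 285.4 with LPS at 2 h against 297.9 with PBS at 2 h, and 323.4 and 333.3 with LPS at 6 h against 369.0 with PBS at 6 h. Its changes of 0.17 and -0.17 were small beside those of Nr3c1, and on the authors' scaling the first was -0.71, close to the median of all genes there. Within replicate 2, Nr1d1 was lower with LPS than with PBS at both times.

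**Figure D5:**
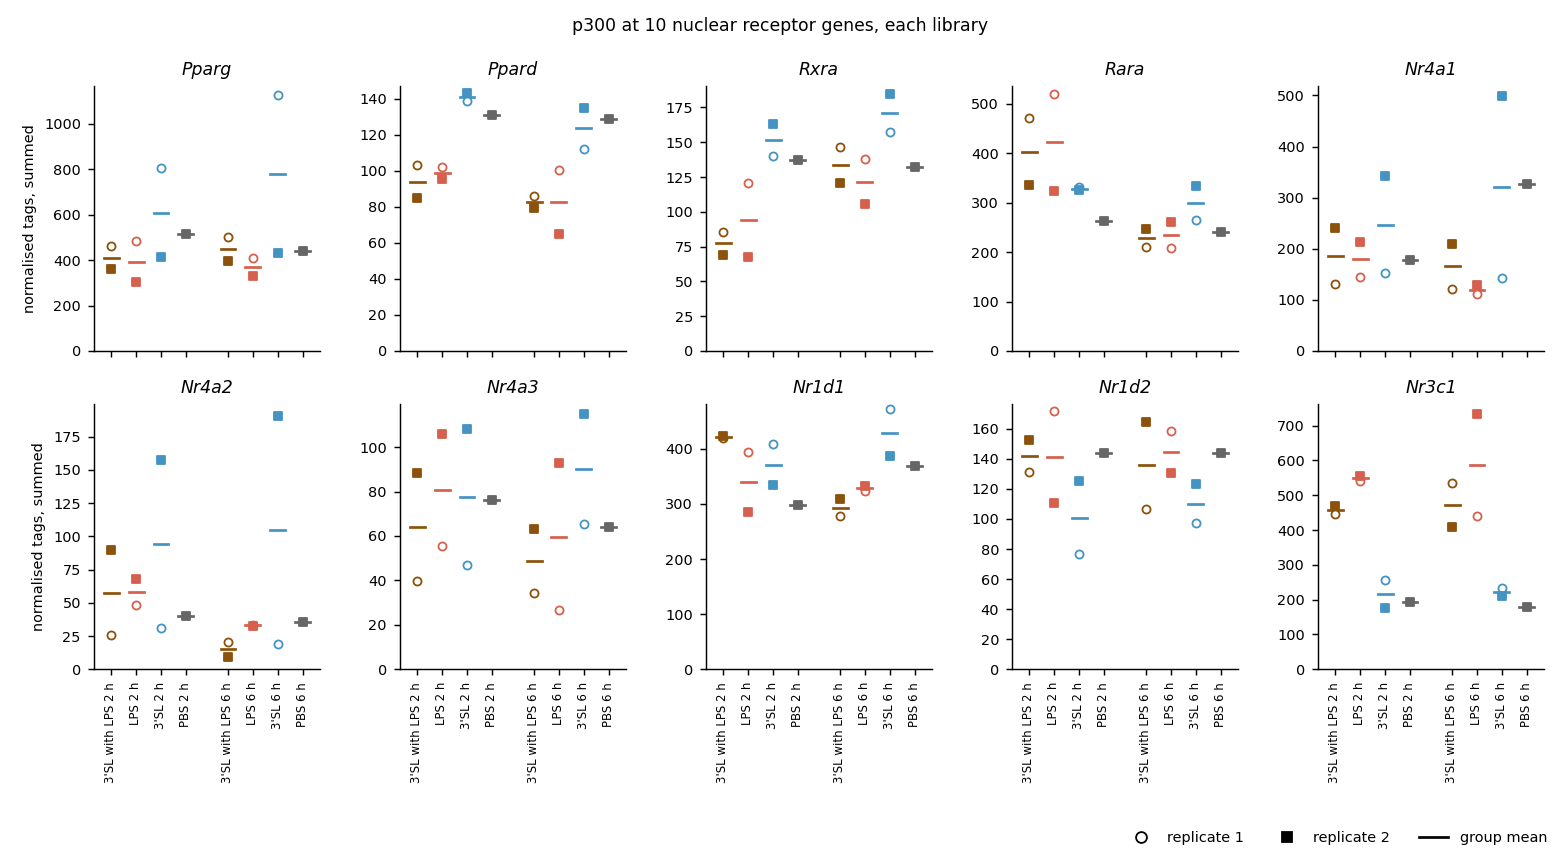
p300 signal summed over the regions of each of the 10 genes (normalised tags, y axis) in 14 libraries by treatment and time (x axis). Open circles are replicate 1, filled squares replicate 2 and lines group means. Both LPS libraries of Nr3c1 are above the 1 PBS library analysed at each time.

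Among 80 member regions tested for p300, 3 were called higher and 0 lower at 2 h, and 1 higher and 0 lower at 6 h, against 2.33% and 0.423% of all 62225 regions. With the block 6 were higher and 2 lower at 2 h, and 3 higher and 1 lower at 6 h, against 7.08% and 2.43%. Other tools did not share most of these calls: edgeR called 0 at both times and DESeq2 called 0 at 2 h and 1 at 6 h, and in simulated data of this design, with 1 PBS library, limma's p300 test called more unchanged genes than its threshold allows. The adjusted p of single p300 regions below are therefore given as a ranking, with the tags behind them. The first was the Nr3c1 region 40.4 kb into the gene, at chr18:39446736-39446871, with 30.5 and 67.7 normalised tags with LPS at 2 h and no tag with PBS at 2 h. Against a floor of 3 tags in that library, LPS was at least 7.74-fold higher on the mean and at least 4.81-fold in the lower LPS library (adjusted p = 0.00362), and the call held without either LPS library. That region held 12 tags with PBS at 6 h, 9 and 7 with 3'SL at 2 h (replicates 1 and 2) and 4 in the input. The fold therefore rests on the 1 PBS library at 2 h, the p300 library of fewest tags (3.2 M). H3K27ac changed there by 2.10 at 2 h (SE 0.55, adjusted p = 0.0521, and 0.000914 with the block).

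The Rara region printed above had 45.7 and 10.3 normalised tags of p300 with LPS at 2 h and no tag with PBS at 2 h, at least 4.42-fold higher on the mean and at least 1.62-fold in the lower LPS library (adjusted p = 0.0219). The p300 input held 9 tags there, and the call was lost without the LPS library of replicate 1 (adjusted p = 0.165). The region also held 9 tags with PBS at 6 h and 12 and 13 with 3'SL at 2 h (replicates 1 and 2). Its fold too rests on the 1 PBS library at 2 h. H3K27ac was not called there, at 39.3 and 10.2 with LPS at 2 h against 28.6 and 18.5 with PBS at 2 h, and the groups overlapped (-0.18, SE 0.81, adjusted p = 0.944). The Nr3c1 region 57.2 kb upstream had 62.3 and 75.0 with LPS at 2 h against 4.23 with PBS at 2 h, which was 2 tags, a ratio of 16.2 (95% counting interval 4.37 to 136, adjusted p = 0.0447). At 30.2 kb upstream, Nr3c1 had 107.1 and 119.0 with LPS at 6 h against 12.8 with PBS at 6 h (12 tags), a change of 3.05 (SE 0.64, adjusted p = 0.0467). Leaving out either LPS library ended these last 2 calls, with adjusted p of 0.186 and 0.153 at the region 57.2 kb upstream and 0.185 and 0.172 at that 30.2 kb upstream. H3K27ac at both these Nr3c1 regions was higher in each LPS library than in each PBS library of the same time: at 57.2 kb upstream it was 71.8 and 49.5 with LPS at 2 h against 8.3 and 7.2 with PBS at 2 h.

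Adding 3'SL to LPS, or giving it alone, produced no called change at these genes without the block. For H3K27ac, the 10 gene changes of 3'SL with LPS against LPS ran between -0.21 and 0.29 at 2 h and between -0.23 and 0.39 at 6 h. Those of 3'SL against PBS ran between -0.42 and 0.83 at 2 h and between -0.64 and 0.37 at 6 h. For p300 the ranges were -0.37 to 0.33 and -1.20 to 0.41 for 3'SL with LPS against LPS, and -0.55 to 0.80 and -0.39 to 0.78 for 3'SL against PBS. Adjusted p was 1.0 in each of these member gene comparisons, and limma, edgeR and DESeq2 called 0 member genes and 0 member regions. In the H3K27ac comparisons 0 member genes and 0 member regions had an unadjusted p under 0.05, and in those of p300 0 genes and 0 to 5 regions had. The same comparisons called 0% of all H3K27ac genes and regions and 0% of p300 genes and regions, except for 3'SL against PBS at 2 h for p300, with 0.0376% of genes and 0.0145% of regions. With the block, the member regions called there were those of Nr3c1 at 40.4 kb and Rara at 10.1 kb, both higher. They are the same regions as named above for p300 with LPS at 2 h. Both comparisons use the 1 PBS library analysed at 2 h, which held no tag at either region.

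For the members called with LPS, no change was called between 3'SL with LPS and LPS. Pparg had 1224 and 1759 normalised tags of H3K27ac with 3'SL and LPS at 2 h against 1207 and 1432 with LPS at 2 h, and 1688 and 2055 against 1482 and 1425 at 6 h. The combined treatment was the higher in both replicates at both times, narrowly so in replicate 1 at 2 h, without a call. Rxra had 364.0 and 189.2 with 3'SL and LPS at 2 h against 286.4 and 264.2 with LPS at 2 h, and its replicates went opposite ways. Nr3c1 had 2421 and 2295 with 3'SL and LPS at 2 h against 3036 and 2466 with LPS at 2 h, and 2246 and 2309 against 2349 and 2570 at 6 h. The combined treatment was the lower in both replicates at both times, again without a call. The Nr3c1 region at 41.3 kb had 107.0 and 90.2 with 3'SL and LPS at 2 h against 199.7 and 120.1 with LPS at 2 h, and 46.8 and 84.4 against 97.1 and 141.6 at 6 h.

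The replicates of Nr4a2 lay far apart under 3'SL alone. It had 390.3 and 813.2 normalised tags of H3K27ac with 3'SL at 2 h against 323.3 and 308.3 with PBS at 2 h, and 196.5 and 830.4 with 3'SL at 6 h against 343.8 with PBS at 6 h. Replicate 2 was high and replicate 1 near PBS or below it. The change was 0.83 at 2 h (SE 0.65), made of 0.27 in replicate 1 and 1.40 in replicate 2. For p300 Nr4a2 had 31.2 and 157.5 with 3'SL at 2 h against 40.1 with PBS at 2 h, and 19.1 and 190.6 with 3'SL at 6 h against 35.2 with PBS at 6 h. Within replicate 2 these are changes of 1.95 and 2.40, and over both replicates 0.80 and 0.78 (SE 1.18). Nr4a1 in replicate 2 likewise had 341.6 and 499.5 tags of p300 with 3'SL at 2 h and 6 h, against 177.5 and 326.3 with PBS, while replicate 1 had 153.1 and 143.5.

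Between times, limma called 0 member genes and 0 member regions for LPS at 6 h against LPS at 2 h, and 0% of all genes and regions for either mark. At an unadjusted p under 0.05 were 1 gene and 3 regions for H3K27ac and 1 gene and 6 regions for p300, and edgeR called none, while DESeq2 and the block called 1 H3K27ac region each. The p300 gene was Rara, with 207.4 and 260.7 normalised tags with LPS at 6 h against 520.7 and 323.7 with LPS at 2 h (-0.82, adjusted p = 1.0), a lower value at 6 h in both replicates. The LPS response at 6 h minus that at 2 h was called for 0 members, against 0% of H3K27ac genes and regions and p300 regions and 0.00626% of p300 genes, with 0 genes for either mark and 1 H3K27ac and 4 p300 regions of members at an unadjusted p under 0.05.

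Ordered by group mean, for Pparg, H3K27ac was highest with PBS at 2 h, then 3'SL at 6 h, PBS at 6 h, 3'SL at 2 h, 3'SL with LPS at 6 h, 3'SL with LPS at 2 h, LPS at 6 h and LPS at 2 h, and 3'SL at 2 h over 3'SL with LPS at 6 h was the only neighbouring pair without overlap. For Nr3c1, LPS at 2 h was highest, then LPS at 6 h, 3'SL with LPS at 2 h, 3'SL with LPS at 6 h, PBS at 6 h, PBS at 2 h, 3'SL at 6 h and 3'SL at 2 h. The neighbours 3'SL with LPS at 6 h and PBS at 6 h did not overlap. Neither did PBS at 6 h, which is 1 library at 1548, and PBS at 2 h, at 1382 and 1537. Nr4a3 and Nr1d2 had no neighbouring pair without overlap. Here and above, groups of 1 or 2 libraries can fail to overlap by chance. The share of such pairs over all genes was not counted, so no difference is read from them.

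Over the 15 H3K27ac libraries, which share treatments and replicate depth, Pparg and Nr3c1 ran against each other (Pearson r = -0.91), and Nr4a1 and Nr4a2 (0.78), Nr4a1 and Nr1d1 (0.75), Nr4a2 and Nr4a3 (0.73) and Ppard and Rxra (0.73) ran together. Among 16710 genes, the sums most like Pparg were those of Mir6904 (r = 0.98), Pdcd4 (0.97) and Ing4 (0.97), and most like Nr3c1 were Snx10, Pik3ap1 and Rnf114 (0.98 each). The nearest to Rxra was Pik3r3 (0.96), to Ppard Rnase2a (0.95), to Rara Slc25a5 (0.88), to Nr1d1 Stat6 (0.97) and to Nr1d2 Nsmaf (0.92). For the NR4A genes they were Dennd4a for Nr4a1 (0.95), Nol8 for Nr4a2 (0.93) and Dusp5 for Nr4a3 (0.90).

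The regions of these genes were also set against peaks called by the authors for LXR, SREBP and p300. The first 2 came from macrophages given the LXR agonist GW3965 (1 µM for 18 h). The p300 list could not be tied to a treatment, and the series also holds a p300 library given GW3965. With an overlap of at least 1 base, LXR peaks lay on 39 of the 101 member regions (38.6%, exact 95% interval 29.1 to 48.8), against 21.9% of all regions. SREBP peaks lay on 24.8% (16.7 to 34.3), against 21.6%, and p300 peaks on 50.5% (40.4 to 60.6), against 33.3%. Neighbouring regions of 1 gene are not independent, so the intervals cover counting error only. LXR peaks lay on 9 of 18 regions of Pparg, 4 of 5 of Nr1d1, 5 of 12 of Rara, 4 of 11 of Rxra and 5 of 18 of Nr3c1. Peaks of all 3 lists lay on the regions of Rxra at 6.1 kb, Pparg at 47.9 kb and Rara at 10.1 kb. They also lay on those of Nr1d1 8.1 kb upstream, Nr3c1 30.2 kb upstream, Ppard at 15.1 kb and Nr1d2 at 5.0 kb. The Nr3c1 region at 40.4 kb carried SREBP and p300 peaks, and the Pparg region at 47.4 kb a p300 peak alone. Pparg at 41 kb and 41.1 kb carried LXR and SREBP peaks. The Nr3c1 regions at 41.1 kb, at 41.3 kb and 57.2 kb upstream carried none.

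Few partner and target genes of these receptors passed the test. In H3K27ac with LPS at 2 h against PBS at 2 h, 0 of 26 other nuclear receptor genes tested were called (median change -0.05), 0 of 12 PPAR targets (-0.06), 0 of 15 clock genes (-0.24) and 0 of 9 retinoic acid targets (-0.25), with 2, 3, 2 and 2 genes of these lists at an unadjusted p under 0.05, beside a median of 0.09 over all genes. Of 18 coregulator genes (median 0.04), 1 was called, a share near the 5.76% of all genes. It was Tbl1xr1, a subunit of corepressor complexes, with 629.5 and 929.5 normalised tags with LPS against 1365 and 2112 with PBS (-1.15, SE 0.29, adjusted p = 0.0431). Of 11 glucocorticoid receptor targets (median -0.10), 1 was called, Tsc22d3, which encodes the glucocorticoid-induced leucine zipper, at 398.8 and 404.8 with LPS against 940.3 and 1426 with PBS (-1.52, SE 0.24, adjusted p = 0.00722). At 6 h another of these targets, Klf9, a transcription factor, was called lower, with 316.0 and 461.2 with LPS against 1180 with PBS (-1.63, SE 0.29, adjusted p = 0.0347), where the list's median was -0.41, with 2 of its 11 genes above 0, beside -0.03 over all genes. All genes called there were 0.569%. The clock genes had a median of -0.32 at 6 h, with 0 of 15 called and 3 at an unadjusted p under 0.05. For p300 limma called no gene of these lists, though some medians lay further from that of all genes. At 2 h the median was -0.44 for 12 PPAR targets and 0.48 for 27 other nuclear receptor genes, beside 0.11 over all genes, with 1 and 4 genes at an unadjusted p under 0.05. At 6 h it was -0.70 for 8 retinoic acid targets, beside -0.06 over all genes, with 0 at an unadjusted p under 0.05. Limma called no gene of these lists in any comparison with 3'SL.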

How the data were processed

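The deposited values are signal, per the file headers: HOMER counted tags on mm10 in windows of 1000 bp (H3K27ac) or 200 bp (p300) around merged ATAC peaks, and the authors scaled each library to 10000000 tags. Bowtie2 and DESeq2 are also named, per the submitters' processing notes, with versions not given in the sources used here. The authors' ATAC list has a score per peak, defined nowhere in the sources used here, and served for positions alone. Whole tags were recovered from the deposited signal within 0.05 for 100% of values. A total of 5 columns of per-sample values could be tied to no labelled sample and stayed unused. The labelled replicate 1 libraries of PBS at 6 h for H3K27ac, and of PBS at 2 h, at 6 h and with no stated time for p300, had no column that matched them by name and are not analysed here. The deposited p65 peak list was not used, since some of its peaks pass the ends of mm10 chromosomes.

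Regions and gene sums were filtered with edgeR's filterByExpr (77387 regions and 16710 genes for H3K27ac, 62225 and 15971 for p300), which kept 89 and 80 of the 101 member regions and all 10 genes. Rescaling used the tags in filtered regions and TMM factors. The test was limma 3.58.1 (R 4.3.3), trended empirical Bayes, two-sided, on log2(value + 1), with 1 mean per group and all groups of the same mark sharing a spread (residual degrees of freedom 7 for H3K27ac, 6 for p300). On this log2 scale changes of low regions come out too small. The p-values were adjusted by the Benjamini-Hochberg method over all regions or genes, with a threshold of 0.05. Gene sums count tags more than once where windows overlap, as 26 member windows of H3K27ac do with the next. Overlaps of the smaller p300 windows were not counted. Where 1 library of a PBS group was analysed, that library is assumed to vary like the other groups. It is of replicate 2, and the main test sets it against both replicates of the treated group. The alternatives were pseudocount 5, no filter, the authors' scaling, edgeR 4.0.16, DESeq2 1.42.0, regions within 10 kb, overlapping windows counted once, the replicate block, each library left out and, chosen after seeing the data, leaving out the libraries labelled 1 h.

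Deviations of same-numbered libraries from their group means correlated in every pair of groups (r 0.445 to 0.67 over 21 pairs for H3K27ac, 0.192 to 0.377 over 15 pairs for p300), so replicate numbers were taken as pairing the libraries. The main limma test has no term for this pairing, which enters the tests only through the replicate block. Replicates differed by more than counting noise (chi-square per degree of freedom 8.34 to 28.3), so none was counted as a duplicate. Intervals and floors of 3 tags per library cover counting error only.

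The members and gene lists were chosen with earlier results of these data known. Named were all 10 genes and, for each, the region nearest the start site, that of highest H3K27ac beyond 2 kb, the called region of smallest p, and the 3 genes of most similar H3K27ac, of which the text names at least the first. The other called regions and the Nr3c1 values at the remaining regions were named after their values were seen.

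The test was tried on simulated data. A first simulation gave all genes 1 spread. Since the p300 test there called many more unchanged genes than its threshold allows, the simulation, not the test, was changed to a spread per gene estimated from these libraries. The p300 test still called more unchanged genes than its threshold allows and recovered few changed ones, so p300 calls, which rest on 1 analysed PBS library at each time, are not reliable by this test alone and are given with the counts of edgeR and DESeq2. For H3K27ac in the second simulation the share of unchanged genes among those called was near the threshold, and most of the changed genes were missed.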

Additional observations from a re-analysis of the deposited data

Results flagged for a closer look

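The H3K27ac library of PBS with no stated time entered no comparison. It carried more tags than every input at 10 of the 10 genes, from 2.26 times the highest input at Nr4a2 to 12.6 times at Nr4a3, on the authors' scale.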

How the results depend on the processing

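With the replicate block, member regions called became 33 against 7 without it (H3K27ac, LPS against PBS at 2 h), 12 against 0 (6 h), 1 against 0 (LPS at 6 h against 2 h), and for p300 8 against 3 (2 h), 4 against 1 (6 h) and 2 against 0 (3'SL at 2 h), and p300 member genes called became 1 against 0 at both times. The block changed no other count of members by over 1.5 times. DESeq2 gave 14 H3K27ac regions at 2 h, 4 at 6 h and 1 between times, 0 p300 regions at 2 h and 1 p300 gene at 6 h. EdgeR gave 0 p300 regions at both times. On the authors' scaling 1 of the 3 H3K27ac genes stayed called, Rxra, and 0 p300 regions at either time. Pseudocount 5 left 1 p300 region at 2 h and 0 at 6 h, and no filter 0 at 6 h. Regions within 10 kb left 1 H3K27ac gene. Without the libraries labelled 1 h, 0 H3K27ac regions and 0 genes were called at 2 h. Leaving out 1 library gave 0 to 3 H3K27ac regions (0 without the PBS library of replicate 2) and 0 genes at 2 h, 1 to 2 p300 regions at 2 h and 0 at 6 h. The authors' scaling moved the share of higher calls among all H3K27ac genes at 6 h to 93.1%, against 70.5%, and the median change of all genes there to -0.17, against -0.03.

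Of 6299 alternative values of 616 results, 0 called ones changed sign, 670 uncalled ones did, 68 lost a call and 40 gained one, 30 of these with the block. Where a library was left out the sample is smaller, and otherwise the cause was not tested. Only 1 p300 vehicle library was analysed at each time, with 3.2 M tags at 2 h, which limits what p300 comparisons can show.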
